A study of Rattus norvegicus with 12 samples.

Results

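Genes of vascular endothelial growth factor (VEGF) and angiopoietin signalling were examined in the hippocampus of male rats kept in normoxia for 4 weeks (control) or exposed to chronic intermittent hypoxia (CIH), repeated bouts of low oxygen used to model sleep apnoea, for 4 weeks. The 10 genes were taken by symbol from the RNA table: the ligands Vegfa, Vegfb, Vegfc and Pgf, the receptors Flt1, Kdr and Nrp1, and the angiopoietin genes Angpt1 and Angpt2 with their receptor gene Tek. All 10 were among the 26949 genes measured, and 9 passed the low-count filter that left 17935 genes for testing; Pgf, with 2 to 18 estimated counts per library, did not. Each group had 3 RNA libraries of hippocampal tissue. The labels name neither strain, age, oxygen schedule nor any pooling of animals. They also leave unsaid whether each library is a different rat, and p-values below therefore cover only library-to-library spread, which may be technical.

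VEGF-A is secreted by glia and neurons under low oxygen and binds the tyrosine kinase receptors encoded by Flt1 and Kdr on endothelial cells; Kdr carries most of the growth and permeability signal, while Flt1 binds the ligand tightly, signals weakly and is also made in soluble forms that trap it. Neuropilin-1 (Nrp1) is a co-receptor, shared with semaphorins and present on neurons as well as vessels. Angiopoietin-1 activates Tie2, the product of Tek, and steadies the vessel wall, whereas angiopoietin-2 is made by activated endothelium and can block that signal. In bulk tissue, fewer cells of a type and less RNA per cell cannot be told apart.

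The regions upstream of the transcription start are shown for Vegfa and Flt1, which stood higher in every CIH library than in any control when reads were scaled to library size, and for Kdr, which did not. They are the 250 bases before the start in RefSeq (build GRCr8, a later assembly than the Rnor_6.0 build named in the submitters' processing notes), 5′ to 3′ on the gene's strand, which is the plus strand in each. Capitals mark the core of the hypoxia response element bound by HIF proteins, ACGTG or GCGTG, and the GC box GGGCGG, on either strand. Vegfa lay at chr9:22452604-22452853, Flt1 at chr12:12333180-12333429 and Kdr at chr14:32571813-32572062.
Vegfa: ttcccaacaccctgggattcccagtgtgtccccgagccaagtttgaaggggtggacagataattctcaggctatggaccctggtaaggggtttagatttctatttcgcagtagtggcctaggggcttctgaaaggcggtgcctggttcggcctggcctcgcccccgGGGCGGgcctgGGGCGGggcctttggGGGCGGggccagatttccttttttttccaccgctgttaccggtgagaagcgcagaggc
Flt1: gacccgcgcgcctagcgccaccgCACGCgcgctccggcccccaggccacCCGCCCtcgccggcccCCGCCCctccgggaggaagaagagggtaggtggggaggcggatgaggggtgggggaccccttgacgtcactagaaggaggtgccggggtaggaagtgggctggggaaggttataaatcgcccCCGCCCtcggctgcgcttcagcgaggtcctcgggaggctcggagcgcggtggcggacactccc
Kdr: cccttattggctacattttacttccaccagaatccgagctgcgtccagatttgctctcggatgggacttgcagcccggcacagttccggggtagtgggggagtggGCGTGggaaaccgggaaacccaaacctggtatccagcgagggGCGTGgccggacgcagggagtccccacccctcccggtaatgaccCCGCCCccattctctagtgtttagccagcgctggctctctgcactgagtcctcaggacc
The Vegfa window held 3 GC boxes, beginning 84, 73 and 58 bases before the start, and no hypoxia core. The Flt1 window held 3 GC boxes and 1 core, GCGTG on the opposite strand, beginning 227 bases before the start, and the Kdr window held 1 GC box and 2 cores, both GCGTG on the gene's strand. Of the 7 members with a RefSeq entry, matched by symbol and gene ID, 5 held a core (Vegfb, Pgf, Flt1, Kdr and Nrp1) and 6 a GC box (all but Nrp1), where 36.7% and 30.5% of 33469 windows of the same length did. Vegfa has 2 listed starts, and the window of the other held neither motif. Members were counted by gene, and the background by window. The members' windows were 56.0% to 73.2% G or C, and the background was not matched for base content. These matches describe the letters only; sites farther from the start lay outside the window.

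Each RNA library held between 17170943 and 21941173 estimated counts, which were scaled to CPM, counts relative to library size, with trimmed-mean factors. Libraries correlated as closely between the groups (r of 0.956 to 0.985 across genes, which are not independent replicates) as within them (0.956 to 0.982), and no pair agreed within sampling noise (lowest chi-square over degrees of freedom, 6.97). The hippocampal granule cell gene Prox1 was present in every library, but at 28.9 CPM in CIH replicate 1 against 108 to 419.7 CPM in the other 5. CIH replicate 1 also held the highest summed endothelial markers, and values without it are given for each tested member, most lists and several single genes.

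Among the ligands, Vegfa was the most abundant and the only ligand whose groups did not overlap. Vegfa stood at 66.6, 74.8 and 75.9 CPM in control replicates 1 to 3 and at 90.5, 90.8 and 87.5 CPM in CIH replicates 1 to 3. The lowest CIH library therefore lay above the highest control, and the CIH libraries lay close together. Mean CPM was 72.4 ± 5.10 for the controls and 89.6 ± 1.79 after CIH (SD, n = 3 each), and the fitted difference was 1.24-fold with a 95% interval of 1.06 to 1.45 that takes no account of the number of genes tested. Over all genes tested Vegfa did not pass (edgeR quasi-likelihood test, Benjamini-Hochberg adjusted p = 1.00). Its log2 fold change, 0.31 (SE 0.10), stayed between 0.25 and 0.34 when any 1 library was left out. It was 0.30 (SE 0.11) without CIH replicate 1.

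Vegfb, whose product binds Flt1 but not Kdr, stood at 31.2, 41.1 and 33.2 CPM in control and 35.4, 40.7 and 32.0 CPM in CIH. The groups overlapped almost fully, with replicate 2 the highest of each group, and the fitted difference was 1.02-fold (95% interval 0.802 to 1.31); the log2 fold change was 0.04 with and without CIH replicate 1. Vegfc, the lymphatic growth factor that signals mainly through another receptor, Flt4, had 10, 12 and 27 estimated counts in control and 25, 13 and 11 in CIH. A single library in each group was high, and the 95% interval of the difference, 0.453-fold to 2.59-fold, spanned lower and higher levels. Its log2 fold change, 0.11 (SE 0.53), became -0.42 (SE 0.53) without CIH replicate 1. Pgf, placental growth factor, a ligand of Flt1, had 10, 2 and 14 estimated counts in control and 18, 10 and 3 in CIH. Without the filter its log2 fold change was 0.36 (SE 0.78), again with overlapping groups.

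Among the receptors, Flt1 stood apart between the groups on the CPM scale. Flt1 was measured at 88.6, 85.0 and 84.0 CPM in control and at 119, 109 and 95.6 CPM in CIH. The controls lay within a narrow band and all CIH libraries above it, with CIH replicate 1 the highest. The means were 85.9 ± 2.40 and 108 ± 11.7 CPM (SD, n = 3 each), a fitted difference of 1.26-fold (95% interval 1.05 to 1.51, edgeR adjusted p = 1.00). Without CIH replicate 1 the log2 fold change was 0.25 (SE 0.11) against 0.33 (SE 0.11) with it.

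Kdr did not share this pattern. It stood at 7.60, 10 and 9.87 CPM in control and at 12.3, 8.11 and 7.33 CPM in CIH. CIH replicate 1 was the highest and CIH replicate 3 the lowest of all 6, so the CIH group spanned the controls, and the fitted difference was 1.01-fold (95% interval 0.684 to 1.48). Nrp1 stood at 163, 104 and 149 CPM in control and at 91.8, 157 and 157 CPM in CIH. Control replicate 2 and CIH replicate 1 were low and the other 4 libraries high, which gave 0.976-fold (95% interval 0.640 to 1.49). Leaving out CIH replicate 1 turned the direction of both: the log2 fold change of Kdr moved from 0.01 to -0.25 (SE 0.19) and that of Nrp1 from -0.04 to 0.17 (SE 0.20).

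**Figure D1:**
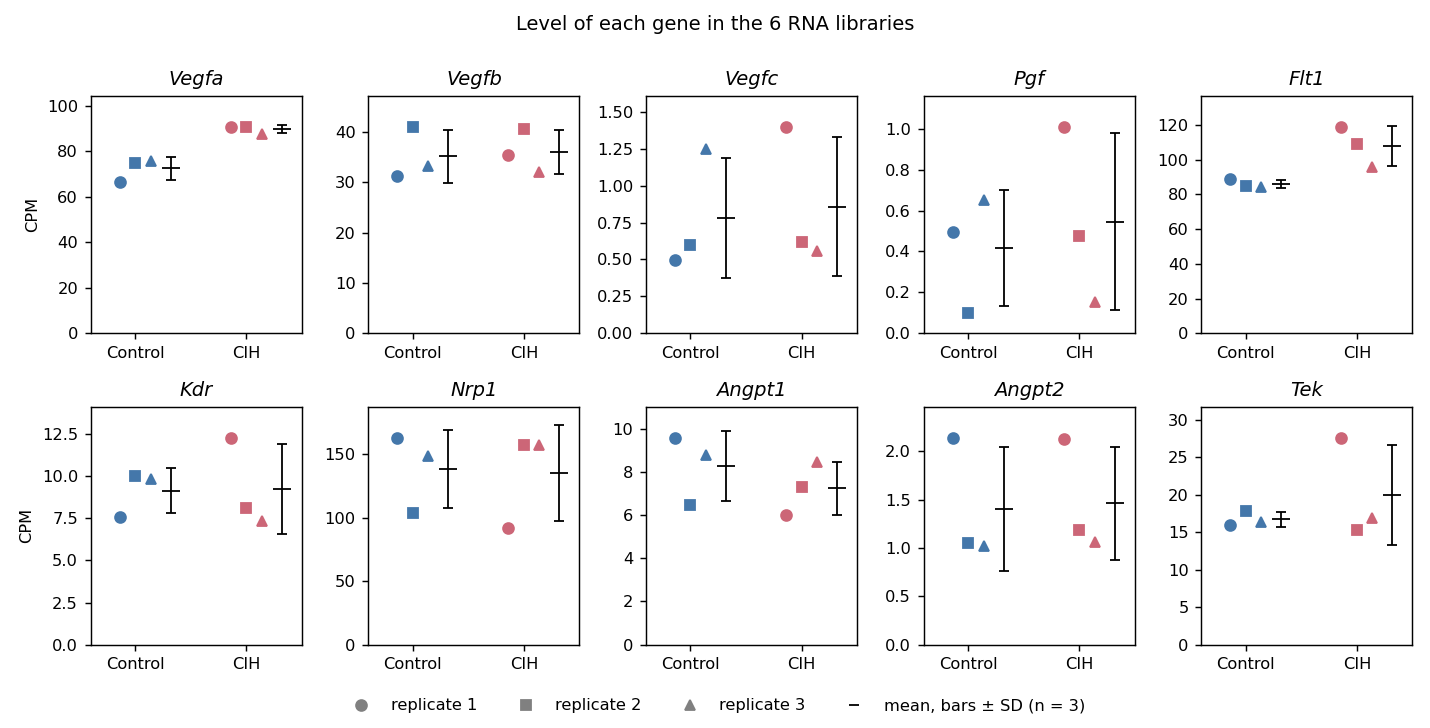
CPM (vertical axes, each from 0) of the 10 genes in the 3 control and 3 CIH libraries; marker shape gives the replicate number, and the bar beside each group is the mean ± SD (n = 3). The groups are apart for Vegfa (at most 75.9 in control, at least 87.5 in CIH) and Flt1 (at most 88.6, at least 95.6) and overlap for the other 8 genes.

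The angiopoietin genes were low and did not separate the groups. Angpt1, made by mural cells and other non-endothelial cells, stood at 9.59, 6.48 and 8.81 CPM in control and 6.0, 7.30 and 8.45 CPM in CIH. CIH replicate 1 was the lowest and control replicate 1 the highest, with overlap between, at 0.874-fold (95% interval 0.618 to 1.24). Its log2 fold change, -0.19 (SE 0.21), was -0.08 (SE 0.21) without CIH replicate 1. Angpt2 stood at 2.14, 1.05 and 1.02 CPM in control and 2.13, 1.19 and 1.06 CPM in CIH. Replicate 1 of each group stood well above the other libraries, and the interval of the difference, 0.510-fold to 2.11-fold, was wide. The log2 fold change of 0.05 (SE 0.43) became -0.32 (SE 0.44) without CIH replicate 1. Tek stood at 15.9, 17.8 and 16.4 CPM in control and 27.6, 15.3 and 16.9 CPM in CIH. CIH replicate 1 alone was high: the log2 fold change was 0.25 (SE 0.23) with that library and -0.06 (SE 0.13) without it.

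No member passed the edgeR test (0 of 9, smallest adjusted p = 1.00), where 0% of all 17935 genes passed; the smallest adjusted p of any gene was 0.520. At an unadjusted p under 0.05 there were 2 of 9 members, Vegfa and Flt1, and 319 of all 17935 genes. DESeq2 called none of the 10 members and 0.0372% of its 26904 genes. The CIH libraries lay above every control in CPM for 2 of 9 members, and this held for 3.05% of all tested genes; no member lay below. Of the 9, 7 had a log2 fold change above 0 and 2 below, with a median of 0.05, and without CIH replicate 1 these were 4, 5 and -0.06; 50.6% of all tested genes were above 0 with all libraries, and their median was 0.00.

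**Figure D2:**
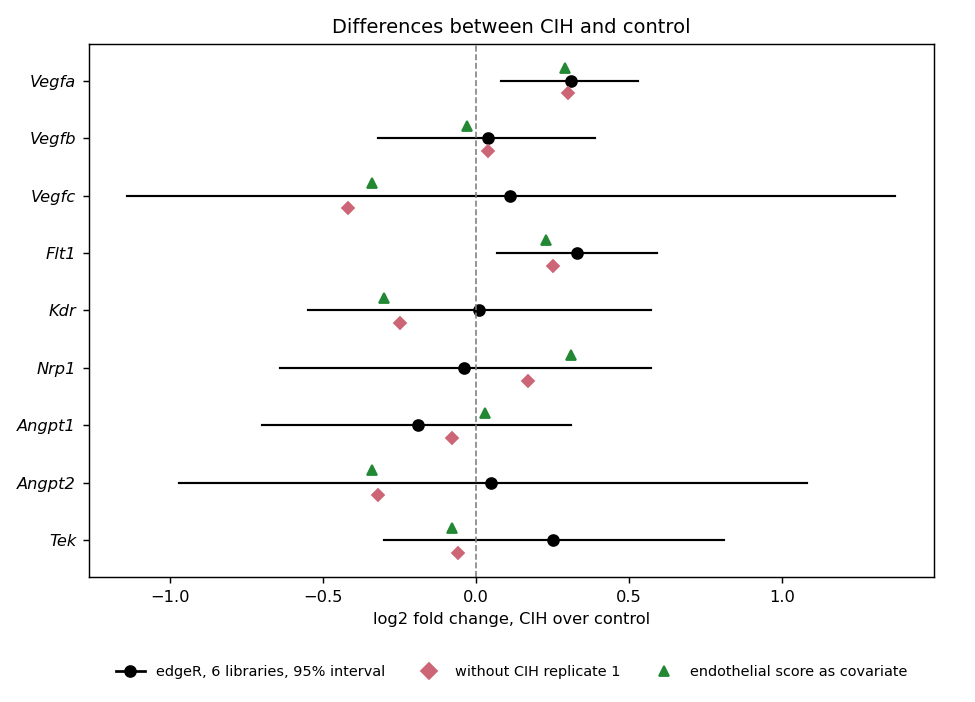
Log2 fold change, CIH over control (horizontal axis), of the 9 tested genes; black points and lines are the edgeR estimate and its 95% interval from 6 libraries, diamonds the estimate without CIH replicate 1, and triangles the estimate with an endothelial marker score as a covariate. Only the intervals of Vegfa (0.08 to 0.53) and Flt1 (0.07 to 0.59) lie above 0, and for these genes all 3 estimates lie on the same side.

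Levels of different genes were compared in TPM, a measure of transcripts that takes their length into account. Averaged over the 6 libraries, the order was Flt1 (161 ± 37.4 TPM, SD, n = 6), Vegfa (77.8), Vegfb (57.7), Nrp1 (52.5), Tek (8.83), Angpt1 (4.47), Kdr (3.03), Angpt2 (1.30), Vegfc (1.13) and Pgf (0.667). Flt1 exceeded the mean TPM of 94.0% of tested genes, and Vegfc that of 7.79%. The place of Flt1 depends on the short length, 822 to 1452 bases, by which its counts were divided (below). In CPM, which takes no account of length, Nrp1 had the higher mean, 137 against 96.9 CPM for Flt1. Neighbours in this order were apart in all libraries for Flt1 and Vegfa, Vegfa and Vegfb, Nrp1 and Tek, Tek and Angpt1, and Kdr and Angpt2. The ranges of Vegfb and Nrp1, Angpt1 and Kdr, Angpt2 and Vegfc, and Vegfc and Pgf overlapped. Vegfa and Vegfb together made nearly all ligand TPM: Vegfa took 52.7% in control and 60.2% in CIH, and Vegfb 46.0% and 38.5%.

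On the TPM scale Vegfa separated the groups more widely than in CPM, and Flt1 no longer did. Vegfa stood at 66.1, 66.8 and 66.2 TPM in control and at 93.5, 89.9 and 84.5 TPM in CIH. The controls were nearly equal, at 66.4 ± 0.359 TPM, against 89.3 ± 4.53 TPM in CIH (SD, n = 3 each), a ratio of means of 1.35. In limma on log2(TPM + 1), the Vegfa difference was 0.42 (SE 0.09), with an adjusted p = 1.00. Flt1 stood at 199, 132 and 109 TPM in control and at 161, 206 and 157 TPM in CIH. Control replicate 1 was the second highest of the 6, so the groups overlapped, and the log2 fold change was 0.29 (SE 0.23). Of the 9 members Vegfa alone had every CIH library above every control in TPM, as did 3.00% of all tested genes.

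The scales differ in the length by which TPM divides the counts, which was not the same in every library. The implied effective length, the estimated count divided by FPKM and by the library total, is an average over a gene's transcripts, weighted by how reads were assigned to them. For Kdr it was 5641 to 5664 bases in the 6 libraries, nearly constant. For Flt1 it was 822, 1190 and 1452 bases in control and 1381, 964 and 1140 bases in CIH. The coefficient of variation (CV) of Flt1, 20.7%, exceeded that of 97.9% of the 14359 genes with an FPKM of at least 1 in every library, whose median was 2.03%. The short and long values lay in both groups, with control replicate 1 the shortest and control replicate 3 the longest. Which Flt1 transcripts, full-length or soluble, made up these averages is not recorded in the gene-level table.

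For Vegfa the implied length was 1859, 2070 and 2167 bases in control and 1812, 1834 and 1944 bases in CIH. CIH replicates 1 and 2 were the shortest and control replicates 2 and 3 the longest, but CIH replicate 3 lay above control replicate 1. The means, 2032 ± 157 and 1863 ± 70.2 bases (SD, n = 3 each), thus came from overlapping groups. Angpt1 (CV 15.0%), Tek (10.1%), Vegfa (7.33%), Vegfb (6.97%) and Nrp1 (2.71%) varied more than the median gene, and Kdr (0.175%) less. In none of the 7 members with sufficient FPKM were the groups apart in length, which held for 5.50% of all genes so measured. This measure was added after the values had been seen.

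**Figure D3:**
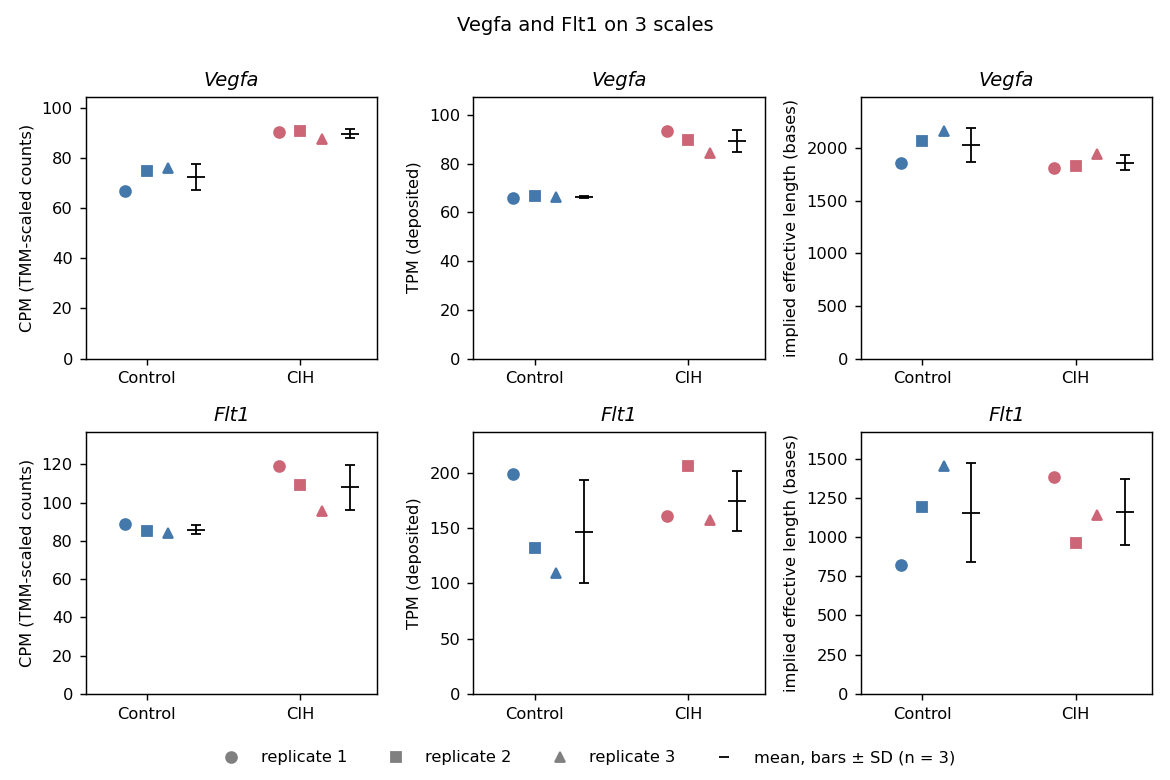
Vegfa (top) and Flt1 (bottom) in each library as CPM, as TPM and as implied effective length in bases, each axis from 0; marker shape gives the replicate number and the bar beside each group the mean ± SD (n = 3). Vegfa is apart between groups in CPM and TPM; Flt1 is apart in CPM and overlaps in TPM, where its implied length ranges from 822 to 1452 bases.

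Ratios within a library set ligand against ligand and receptor against receptor. The ratio of Vegfa to Vegfb in TPM was 1.14, 1.04 and 1.27 in control and 1.6, 1.46 and 1.64 in CIH. Every CIH library lay above every control, and the difference in mean log2 ratio was 0.45 (two-sided exact permutation test, p = 0.10, the smallest that 3 against 3 libraries can give; 0.30 adjusted over the 3 ratios). Taken on estimated counts instead, the ratios were 2.13, 1.82 and 2.29 for the controls and 2.56, 2.23 and 2.73 in CIH, which overlapped, and the difference was 0.27 (exact permutation p = 0.200). The ratio of Flt1 to Kdr in TPM was 80.2, 40.2 and 33.2 in control and 39.6, 79.3 and 64.7 in CIH. High and low values fell in both groups, with a log2 difference of 0.31 (exact permutation p = 0.80, also after adjustment). On counts that ratio was 11.7, 8.47 and 8.51 for the controls and 9.68, 13.5 and 13.0 after CIH, with a difference of 0.34 (exact permutation p = 0.200). Its level was lower on counts, since TPM divides Flt1 by a much shorter length than Kdr. The ratio of Angpt2 to Angpt1 in TPM was 0.380, 0.241 and 0.176 in control and 0.556, 0.208 and 0.249 in CIH. Angpt1 was the higher of the pair in all 6 libraries, and the log2 difference of 0.28 (exact permutation p = 0.600, adjusted 0.80) became -0.15 without CIH replicate 1.

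**Figure D4:**
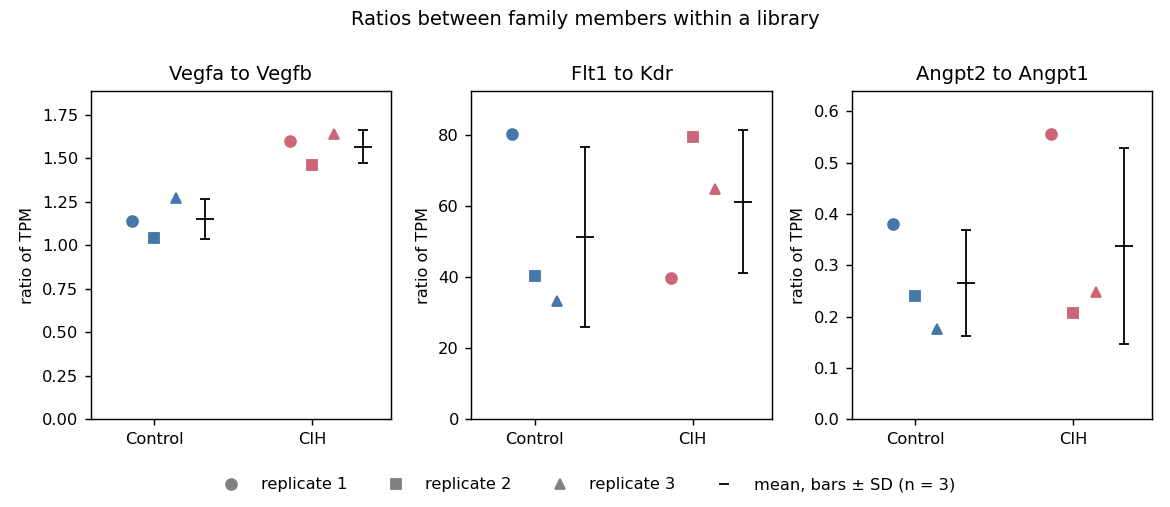
Ratio of TPM within each library (vertical axes from 0) for Vegfa to Vegfb, Flt1 to Kdr and Angpt2 to Angpt1; marker shape gives the replicate number and the bar beside each group the mean ± SD (n = 3). The groups are apart only for Vegfa to Vegfb, at 1.04 to 1.27 in control and 1.46 to 1.64 in CIH.

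Summed markers of the vessel wall overlapped between the groups and were highest in CIH replicate 1. The 16 endothelial markers, none of them a member, summed to 309 to 406 CPM in control and 331 to 551 CPM in CIH. All 16 were detected in every library, 12 were highest in CIH replicate 1, and 13 had a log2 fold change above 0 with a median of 0.20. Every CIH library lay above every control in CPM for 5 of the 16, against 3.05% of all tested genes. Without CIH replicate 1, 6 of the 16 were above 0 and 10 below, with a median of -0.04. The 3 with the smallest p were Erg, an endothelial transcription factor (0.63, SE 0.23), Robo4, an endothelial guidance receptor (1.13, SE 0.37), and Slco1a4, a blood-brain barrier transporter (0.42, SE 0.15). Robo4 was low, at 0.994, 2.59 and 1.44 CPM in control and 3.92, 3.98 and 3.14 CPM in CIH. The junction genes Pecam1 and Cldn5 stood at 0.52 (SE 0.23) and 0.28 (SE 0.15). The 10 mural markers summed to 294 to 347 CPM in control and 268 to 445 CPM in CIH, with 8 above 0, a median of 0.29 and 2 of 10 with groups apart, CIH higher. Without CIH replicate 1, 4 were above 0 and 6 below, with a median of -0.19. Among them Abcc9 and Kcnj8, subunits of the pericyte potassium channel, stood at 0.35 (SE 0.15) and 0.53 (SE 0.27), Rgs5 at 0.31 (SE 0.17) and the platelet-derived growth factor receptor gene Pdgfrb at 0.17 (SE 0.14). All had an edgeR adjusted p = 1.00.

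Of the members, 5 were highest in CIH replicate 1 (Vegfc, Pgf, Flt1, Kdr and Tek) and 2 were lowest in it (Nrp1 and Angpt1). Dentate granule markers, which also stood apart there, summed to 73.9 CPM in that library. They summed to 225 and 420.0 CPM in CIH replicates 2 and 3, and 191 to 495 CPM in control. Prox1 made 28.9 of the 73.9 CPM in CIH replicate 1 and 419.7 of the 495 CPM in control replicate 1. Of the dentate markers tested, 4 were lowest and 1 was highest in CIH replicate 1. Log2 CPM minus its mean over the 6 libraries, averaged over these markers, was 0.55, 0.30 and 0.36 in control. It was -0.90, -0.25 and -0.07 in CIH, so every CIH library lay below every control. Among these markers only Glp1r, near the count floor, had groups apart by itself, and its part in that average was not tested. Neuronal markers summed to 9066 CPM in CIH replicate 1 and 10178 to 14415 CPM in the other 5 libraries. Of these, 6 were lowest and 1 was highest in CIH replicate 1. Blood markers summed to 129 CPM in CIH replicate 1 and 58.5 to 103 CPM in the others, and choroid plexus markers to 4.36 to 20.9 CPM in CIH and 9.55 to 22.6 CPM in control, with 3 of 10 at 0 counts in at least 1 library. The same average of centred log2 CPM for choroid plexus markers was 0.74, 0.36 and 0.34 in control. In CIH it was -0.84, -0.77 and 0.16, again below every control. Summed astrocyte markers (3618 to 4476 CPM in control, 4000 to 4521 in CIH), microglia markers (259 to 280.0 and 255 to 320.3) and oligodendrocyte markers (3235 to 7635 and 5028 to 7720) overlapped between the groups.

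No gene of these other lists passed (edgeR adjusted p = 1.00 for each), and each is described by its counts above and below 0, its median log2 fold change and the genes with the smallest p. Leaving out CIH replicate 1, the median was -0.34 for dentate granule, -0.39 for choroid plexus, 0.10 for blood, 0.47 for oligodendrocyte, 0.14 for microglia, 0.04 for astrocyte and 0.12 for neuronal markers. With all libraries, of 6 dentate granule markers tested, 1 was above and 5 below (median -0.59). Glp1r stood at -2.96 (SE 0.50), Dsp at -0.86 (SE 0.54) and C1ql2 at -0.70 (SE 0.44). Glp1r lay near the count floor, at 0.646, 1.05 and 0.834 CPM in control and 0.168, 0.0948 and 0.0506 CPM in CIH. The list was chosen with earlier results of these data known, so its count and median are not independent of them. What Glp1r contributed to the median was not tested. Of 7 choroid plexus markers none was above and 7 were below (-0.72), with Prlr at -1.03, Kl at -0.73 and Slc4a5 at -0.55. Of 7 blood markers 7 were above and none below (0.28), with Hba-a3 at 0.82, Hbb-b1 at 0.77 and Alas2 at 0.56. Astrocyte markers split 5 and 5 (0.02; S100b 0.24, Aldoc 0.18 and Slc1a3 0.15), and microglia markers 7 and 3 (0.07; Aif1 0.28 and P2ry12 0.28). Oligodendrocyte markers split 8 and 2 (0.31; Mbp 0.45, Mag 0.41 and Cnp 0.35) and neuronal markers 4 and 6 (-0.02; Snap25 0.21, Camk2a 0.19 and Map2 0.11). Globin genes such as Hba-a3 and Hbb-b1 have near-identical copies, so their counts are uncertain. The part of neuronal, dentate, choroid plexus, blood and glial RNA in the members' values was not tested.

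With the endothelial score, the mean centred log2 CPM of the 16 markers, as a covariate, Vegfa stood at 0.29 (SE 0.11) and Flt1 at 0.23 (SE 0.11). In that fit Kdr at -0.30 (SE 0.20) and Tek at -0.08 (SE 0.17) lay below 0, and Nrp1 at 0.31 (SE 0.16) lay above it. None passed (edgeR adjusted p = 0.999 for each). Per summed endothelial CPM, Tek was 0.0463, 0.0439 and 0.0531 for the controls against 0.0502, 0.0420 and 0.0511 after CIH. In this ratio the first CIH library lay inside the range of the other libraries for Tek. The sum leaned on Vwf, which made 228 of 551 CPM in CIH replicate 1 and 83.8 of 309 CPM in control replicate 3. What Vwf contributed to these ratios was not tested. Flt1 per endothelial CPM was 0.257, 0.209 and 0.272 in control and 0.216, 0.300 and 0.288 in CIH. On that footing the groups overlapped, and CIH replicate 1, the highest in CPM, was the second lowest. Vegfa, made mostly outside the endothelium, overlapped on that footing too, with controls at 0.193, 0.184 and 0.246 against 0.164, 0.249 and 0.264 after CIH.

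**Figure D5:**
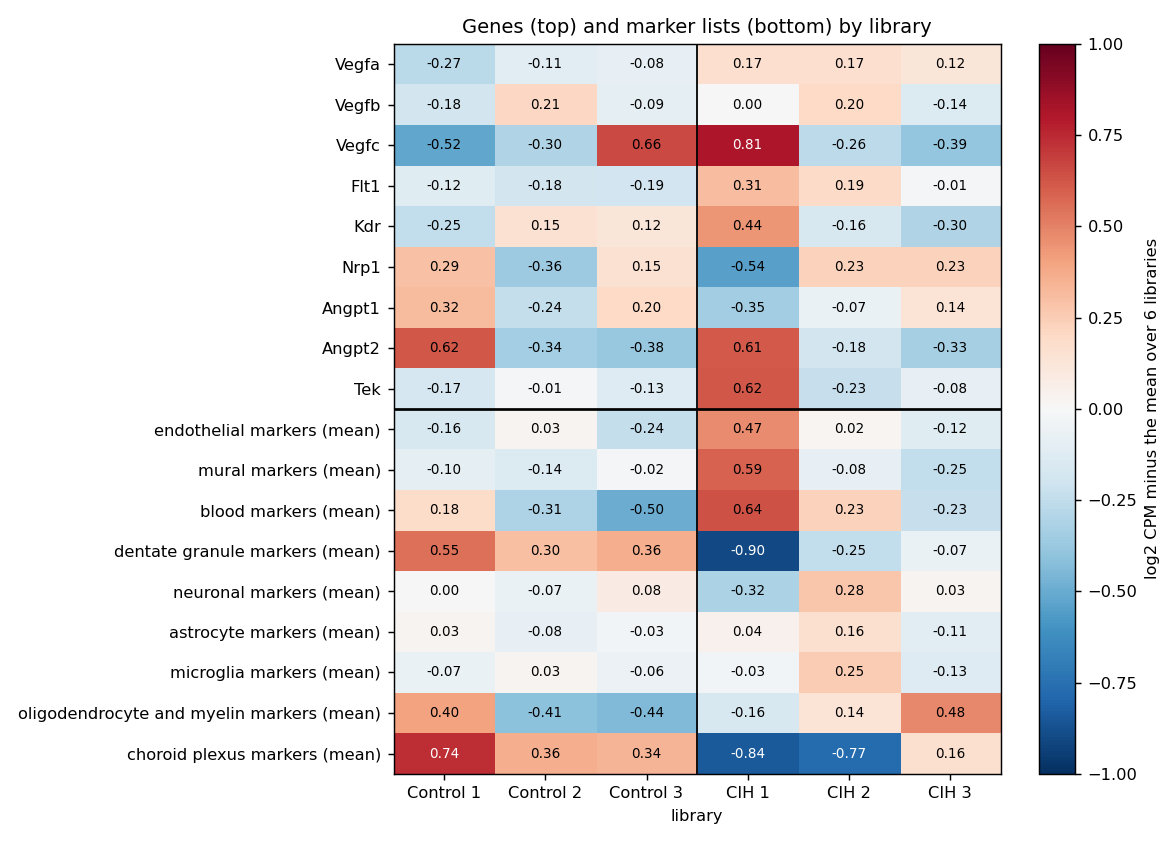
Log2 CPM minus its mean over the 6 libraries (colour and printed value) for the 9 tested genes (above the line) and the mean over the members of each marker list (below it); columns are libraries, and colours saturate at 1 and -1. CIH replicate 1 is highest for Tek (0.62), endothelial (0.47) and mural markers (0.59) and lowest for Nrp1 (-0.54) and dentate granule markers (-0.90), while Vegfa is 0.12 to 0.17 in all CIH libraries.

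Other ligands, receptors and co-receptors of vessel growth were read from a list of 20 symbols, of which 17 were tested. No gene passed, 12 were above 0 and 5 below, with a median log2 fold change of 0.19, and 4 had every CIH library above every control in CPM, against 3.05% of all tested genes. Without CIH replicate 1, 8 were above 0 and 9 below, with a median of -0.01. The 3 with the smallest p were Robo4 (above), the vessel-growth peptide gene Apln and the semaphorin receptor gene Plxnd1. Robo4 and Tie1 are also on the endothelial list, so the lists are not separate. Apln, a transcript of sprouting tip cells, stood at 17.5, 15.3 and 12.8 CPM in control against 22.5, 21.4 and 18.7 CPM after CIH (log2 fold change 0.46, SE 0.16). Plxnd1 stood at 50.9, 54.4 and 28.0 CPM in control and 126, 58.6 and 58.5 CPM in CIH, at 0.87 (SE 0.38). Apln and Plxnd1 were each highest in CIH replicate 1 and did not overlap between the groups; without that library they stood at 0.39 (SE 0.17) and 0.39 (SE 0.27). The fourth non-overlapping gene, chosen after its values were seen, was Ptprb, the endothelial phosphatase that restrains Tie2. It stood at 93.4 to 95.9 CPM in the 3 controls and at 153, 100.2 and 96.5 CPM after CIH. The groups barely cleared each other, and the log2 fold change of 0.30 (SE 0.19) was 0.05 (SE 0.09) without CIH replicate 1.

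Within the cell, 30 genes of VEGF and Tie2 signal transduction were all tested. None passed or had groups apart in CPM, 19 were above 0 and 11 below, with a median of 0.04. Among those with the smallest p were Foxo1, the transcription factor that Tie2 signalling holds out of the nucleus (-0.25, SE 0.14), and the kinase gene Prkcb (0.26, SE 0.19). Of 10 oxygen-sensing genes, which act upstream of Vegfa, 5 were above 0 and 5 below with a median of 0.00. Epas1, which encodes the HIF subunit prominent in endothelium and astrocytes, stood at 206, 176 and 165 CPM in control and 219.5, 227 and 202 CPM in CIH (0.25, SE 0.12). Its groups overlapped by 1 library on each side. Hif1a stood at 0.08 (SE 0.17), Hif3a at 0.23 (SE 0.25) and Vhl, which targets HIF proteins for destruction, at -0.10 (SE 0.11).

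The genes most like Vegfa across the 6 libraries, by the root mean square difference of centred log2 CPM among 14772 other genes with a mean log2 CPM above 1, were BGIG10116_40955 (0.034), LOC103690105 (0.047), BGIG10116_39784 (0.049), LOC108350701 (0.054) and Cd59, a complement inhibitor (0.059). Those most like Flt1 were Rhobtb1 (0.044), Luzp2 (0.054), Lbr (0.054), Slc52a3 (0.055) and LOC690035 (0.056). Flt1 ranked 139 in likeness to Vegfa, and Vegfa ranked 153 in likeness to Flt1, at a difference of 0.113.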

How the data were processed

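Hippocampal RNA from 3 control and 3 CIH libraries was analysed; 6 small RNA libraries of the series were not used here. Per the file headers, the authors deposited estimated read counts, TPM and FPKM per gene. The submitters' processing notes name, without saying what each did, the build Rnor_6.0 and the tools HISAT2 2.2.0, Bowtie2 2.2.5 and RSEM 1.2.12; neither annotation nor strand use is given in the sources, so reads of overlapping antisense genes may be included. The deposited estimated counts (16.0% not whole) were rounded and tested with edgeR 4.0.16 (quasi-likelihood, TMM factors, filterByExpr, Benjamini-Hochberg over all genes, threshold 0.05) in R 4.3.3; SEs were derived from the fold change and F. Levels, ratios and limma 3.58.1 used the TPM column deposited by the authors. Implied lengths used the deposited FPKM. DESeq2 1.42.0, RLE scaling, no filter, the replicate number as a block, an endothelial covariate and leaving out each library were alternatives. Permutation tests used scipy 1.17.1. The edgeR step was checked on simulated counts with seeded changes larger than the fitted difference of any member. That check does not show whether differences of the members' size would be detected.

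The members and lists were chosen with earlier results of these data known. Named beside the members were up to 3 genes with the smallest p of each list 5 fixed genes, and the 5 genes most like Vegfa and Flt1; some genes under this rule are not reported here. Promoter sequences came from RefSeq (GRCr8); Tek, Angpt1 and Angpt2 were not matched there.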

Additional observations from a re-analysis of the deposited data

How the results depend on the processing

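No member was called under any alternative run, and Vegfa and Flt1 kept their direction in all of them (0.25 to 0.34 and 0.25 to 0.41 on leaving out 1 library). Over all genes, edgeR called 0, DESeq2 10, limma on log2(TPM + 1) and on log2(TPM + 0.1) 1 each (NEWGENE_1306267), and leaving out 1 library 0 to 1 (Wbp11 without control replicate 3, Wbp11l1 without CIH replicate 2); these genes are outside the naming rule. Of 122 alternative log2 fold changes of members, 27 had the other sign. Vegfb stood at -0.02 in both limma fits and -0.03 with the endothelial covariate. Kdr stood at -0.01 and -0.02 in limma with a pseudocount of 1 and 0.1, -0.02 with the replicate block and -0.30 with the covariate. With the covariate Vegfc stood at -0.34, Nrp1 at 0.31, Angpt1 at 0.03, Angpt2 at -0.34 and Tek at -0.08. Leaving out 1 library gave -0.06 to 0.16 for Vegfb, -0.42 to 0.63 for Vegfc, -0.09 to 0.81 for Pgf (4 fits), -0.25 to 0.15 for Kdr, -0.21 to 0.17 for Nrp1, -0.35 to -0.08 for Angpt1, -0.32 to 0.49 for Angpt2 and -0.06 to 0.41 for Tek; the log2 ratio difference ran from -0.15 to 0.57 for Angpt2 to Angpt1, 0.05 to 0.69 for Flt1 to Kdr and 0.38 to 0.52 for Vegfa to Vegfb. For each of these shifts the cause was not tested. The labels do not say whether libraries sharing a replicate number were paired. Correlations of their deviations from the group mean were -0.222, -0.0457 and -0.176, which with 3 libraries per group cannot decide it. The replicate block called 0 genes, with Vegfa at 0.31 and Flt1 at 0.32. For the ratios, sign flips within 3 pairs cannot go below 0.25. Pgf, Vegfc and Angpt2 had 2 to 43 estimated counts per library; the part of depth in their wide spread was not tested. Without CIH replicate 1, an alternative for the lists added after the data were seen, the median was -0.01 for the other pathway genes, -0.04 for endothelial, -0.19 for mural and 0.12 for neuronal markers, each of the other sign than with all libraries.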
